A study of Mus musculus with 7 samples.

Results

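The glycolytic route of the retina was followed through 36 genes that were picked by symbol: glucose carriers and glycolytic enzymes, the kinases that set fructose 2,6-bisphosphate, the lactate dehydrogenases and lactate carriers, the kinases and carriers that steer pyruvate, and the rod-derived cone viability factors. All 36 were among the 52550 rows of the count table, and all 36 were among the 20128 genes that passed the filter on low counts. Aldoa was carried by a pair of rows, and the row with the bulk of its reads was used. The 12 annotated copies of these genes that had a row of their own held at most 29 reads in any library, the second Aldoa row held at most 35, and how reads that fit several copies were treated is not given in the sources used here. The retinas came from C57BL/6J mice of 12.5 weeks: 4 wild-type (WT) mice and 3 homozygous SCA7 knock-in mice (labelled SCA7_KI_homo and called SCA7 here), in which an expanded CAG repeat sits in the mouse Atxn7 gene and is expressed from that gene's own promoter. SCA7, spinocerebellar ataxia type 7, is a polyglutamine disease with a retinal degeneration. Each library held total RNA from the 2 retinas of 1 mouse, so the spread between libraries is a spread between mice. No sex was given in the labels.

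Photoreceptors turn most of the glucose they take up into lactate even when oxygen is plentiful, a habit known as aerobic glycolysis. Glucose enters through GLUT carriers, is trapped by hexokinase, is split into trioses after the phosphofructokinase step, and leaves the pathway as pyruvate. Pyruvate is either reduced to lactate by lactate dehydrogenase and exported by monocarboxylate carriers that need the chaperone basigin, or it enters the mitochondrion through the mitochondrial pyruvate carrier, where the pyruvate dehydrogenase kinases decide how much is oxidized. Rods are also known to secrete a truncated thioredoxin-like protein, rod-derived cone viability factor, which acts on cones through a basigin and glucose carrier complex.

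Most enzymes of the pathway did not pass the test in SCA7 retina, and the downregulated genes were 2 kinases that regulate phosphofructokinase, 2 lactate carriers and 1 cone viability factor gene. Of the 36 genes, 5 were downregulated, that is with an adjusted p value under 0.05 and a fold change (FC, SCA7/WT) under 0.7 in edgeR's quasi-likelihood test with Benjamini-Hochberg adjustment across the whole table. These were Nxnl1, Pfkfb2, Pfkfb1, Slc16a1 and Slc16a8, 13.9% of the 36 genes, where 7.91% of all genes tested were downregulated. Only Pfkl was upregulated (FC above 1.3), 2.78% of the 36 genes against 7.47% of all genes tested. Among the more abundant genes, those whose mean reached 10 CPM (counts scaled to a common library size), 4.68% were downregulated and 5.51% upregulated, beside 3 (9.09%) and 1 (3.03%) of the 33 of these genes at that level. With no limit on FC, 8 of the 36 genes were lower and 3 were higher at that adjusted p value, where 14.2% of all genes tested were lower and 14.2% were higher. When each library was left out in turn, those counts ran from 5 to 8 lower (5 without SCA7 mouse 2) and from 1 to 6 higher (1 without SCA7 mouse 1 or SCA7 mouse 3, 6 without WT mouse 4). In 8 of the 36 genes every SCA7 mouse lay below every WT mouse, which held for 18.3% of all genes tested, and in 3 every SCA7 mouse lay above every WT mouse, which held for 19.3%. The median log2 FC over the 36 genes was -0.01, beside -0.02 over all genes tested, with a range from -1.49 to 0.39. For 25 genes the adjusted p value was 0.05 or more, and for 22 of these the interval of 2 standard errors (SE) stayed inside the FC limits, Hk1, Slc16a7 and Pdk4 being the exceptions.

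**Figure D1:**
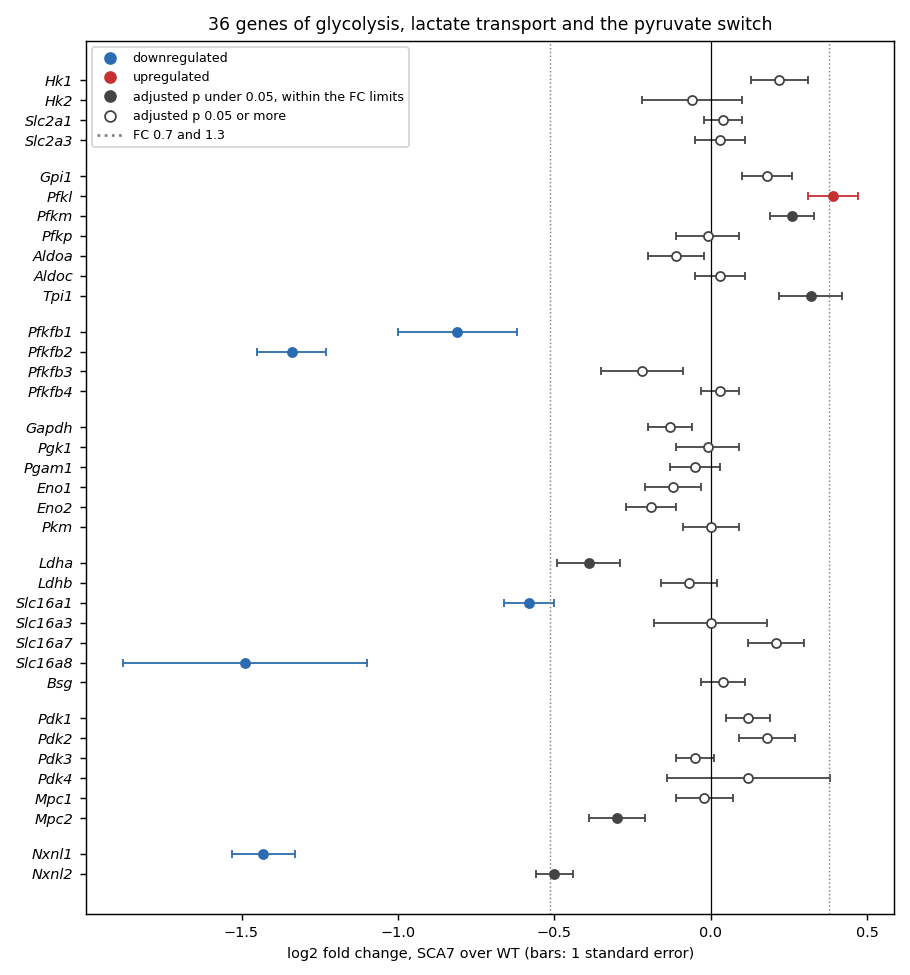
Log2 FC (SCA7/WT) of the 36 genes on the horizontal axis, with bars of 1 standard error, grouped from top to bottom as glucose entry, upper glycolysis, fructose 2,6-bisphosphate, lower glycolysis, lactate, pyruvate switch and cone viability factors. The 5 downregulated genes (blue) reach from -0.58 to -1.49, Pfkl (red) is at 0.39, and the 6 enzymes from Gapdh to Pkm lie between -0.19 and -0.00.

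Marker levels of several cell types differed strongly between these retinas, and in whole tissue fewer cells of a type and less RNA per cell cannot be told apart. The summed level of 10 rod markers ran from 63300 to 65114 CPM in WT and from 17060 to 22135 CPM in SCA7, with 10 of 10 downregulated. Of 10 cone markers 9 were downregulated, with sums of 1450 to 1726 CPM in WT and 263 to 289 CPM in SCA7 over these 9. The tenth, Gnb3, was upregulated (log2 FC 1.06, SE 0.07, adjusted p = 5.5e-07 by edgeR), and with it the sums were 1705 to 2008 CPM and 808 to 856 CPM. Of 8 Müller glia markers none was called (4565 to 5508 CPM and 4454 to 4731 CPM), with 1 lower (Glul, log2 FC -0.36) and 3 higher at the adjusted p value inside the FC limits, and of 8 reactive glia markers 7 were upregulated (63.0 to 77.1 CPM and 382 to 443 CPM). All 11 microglia markers were upregulated (64.6 to 80.5 CPM and 160 to 181 CPM). No rod, cone or glial marker was at 0 in any library. Sums of inner retinal markers were lower without overlap for bipolar (831 to 981 CPM and 718 to 755 CPM) and amacrine cells (513 to 613 CPM and 446 to 485 CPM). So were those for horizontal (85.0 to 97.3 CPM and 70.9 to 72.4 CPM) and ganglion cells (889 to 1084 CPM and 803 to 855 CPM). Of these lists only the bipolar one held downregulated genes, 3 of 8. The lens marker sum varied within both groups (28.5 to 358 CPM and 22.6 to 612 CPM). Total counts ran from 56497675 to 96635832 per library. CPM values here are scaled by TMM factors of 0.890 to 0.974 in WT and 1.06 to 1.09 in SCA7, and scaling by total counts instead would move every log2 FC up by 0.19, so that changes are to be read relative to the other genes. Atxn7 itself had a mean of 39.2 ± 4.26 CPM over the 4 WT mice and of 37.6 ± 2.99 CPM over the 3 SCA7 mice (± SD) (log2 FC -0.06, SE 0.09, adjusted p = 0.636 by edgeR). A gene count does not show the repeat length, so this does not check the labels.

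The 36 genes together were at 15094, 16118, 17815 and 16383 CPM in the 4 WT mice and at 16039, 15234 and 16104 CPM in the 3 SCA7 mice. The groups overlapped, while over the same mice the rod marker sum did not overlap. As a share of all counts, before TMM scaling, the 36 genes held 1.45% to 1.60% in WT and 1.65% to 1.75% in SCA7.

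**Figure D2:**
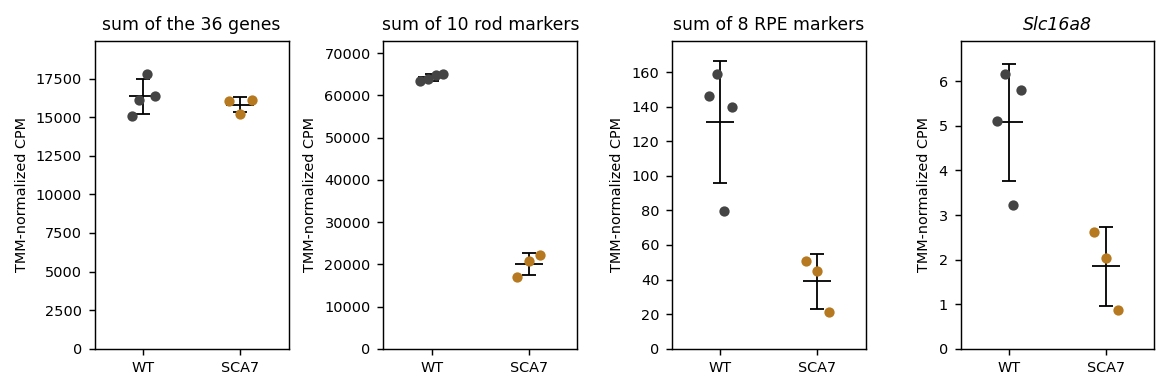
TMM-normalized CPM in each mouse (points), with the group mean and SD (bars), for the sum of the 36 genes, the sum of 10 rod markers, the sum of 8 markers of the retinal pigment epithelium (RPE) and Slc16a8. The sum of the 36 genes overlaps between WT and SCA7, whereas the other 3 panels show every SCA7 mouse below every WT mouse.

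The letters just upstream of the start site are given for 4 of the 8 genes that were lower at the adjusted p value, a pair of cone viability factor genes and a pair from lactate production and export: Nxnl1 and Slc16a1, which were downregulated, and Nxnl2 and Ldha, which stayed inside the FC limits. Ldha has a further RefSeq start downstream, whose upstream window holds 1 TAATCC and 1 GCGTG and is not shown. They were read from RefSeq start sites on GRCm38.p6 and run 5′ to 3′ on the strand of the gene, and each window was ended before any base annotated as exon. The Ldha window lies before the RefSeq start but within an intron of a longer annotated transcript, whose start is 4329 bases upstream of the RefSeq start. Capitals mark, on either strand, TAATCC (the letters preferred by the photoreceptor homeodomain factor CRX), TGCTGA (the core letters of sites for NRL and other Maf factors), and ACGTG and GCGTG (the core letters of hypoxia response elements). CACGTG holds ACGTG on both strands.
Nxnl1 chr8:71566650-71566899 (-): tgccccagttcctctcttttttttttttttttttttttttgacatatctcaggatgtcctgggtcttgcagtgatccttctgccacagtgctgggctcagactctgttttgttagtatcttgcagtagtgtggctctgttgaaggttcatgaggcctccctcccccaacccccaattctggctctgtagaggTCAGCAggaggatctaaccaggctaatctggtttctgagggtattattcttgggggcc
Nxnl2 chr13:51170775-51171021 (+): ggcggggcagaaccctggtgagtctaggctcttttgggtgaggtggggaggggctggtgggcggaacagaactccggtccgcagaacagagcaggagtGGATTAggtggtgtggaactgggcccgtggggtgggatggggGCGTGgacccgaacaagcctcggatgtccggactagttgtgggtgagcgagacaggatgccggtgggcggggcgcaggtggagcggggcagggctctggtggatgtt
Slc16a1 chr3:104638414-104638663 (+): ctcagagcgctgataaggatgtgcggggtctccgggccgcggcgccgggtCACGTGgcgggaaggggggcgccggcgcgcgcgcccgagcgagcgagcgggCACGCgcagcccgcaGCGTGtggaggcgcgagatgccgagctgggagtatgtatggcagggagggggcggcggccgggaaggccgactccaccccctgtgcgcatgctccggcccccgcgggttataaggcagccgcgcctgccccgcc
Ldha chr7:46845554-46845803 (+): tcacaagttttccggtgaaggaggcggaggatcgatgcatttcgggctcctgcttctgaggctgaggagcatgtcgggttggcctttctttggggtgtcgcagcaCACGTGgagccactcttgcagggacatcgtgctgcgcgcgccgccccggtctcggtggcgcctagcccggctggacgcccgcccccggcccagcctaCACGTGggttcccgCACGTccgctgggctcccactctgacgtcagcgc
The Nxnl1 window held 1 TGCTGA and the Nxnl2 window 1 TAATCC and 1 GCGTG. The Slc16a1 window held ACGTG 2 times (both strands of 1 CACGTG) and GCGTG 2 times, and the Ldha window held ACGTG 5 times, of which 4 came from its CACGTG palindromes. Over the upstream windows of the 33 genes that had one, 14 (42.4%) held ACGTG and 22 (66.7%) held GCGTG, where 18.5% and 30.9% of the genes in the RefSeq table did. TAATCC was found for 6 of the 33 (18.2%) beside 7.21% of genes, and TGCTGA for 7 (21.2%) beside 18.0%. Bsg, Slc16a7 and Slc2a3 had no window. These counts describe letters and were not tested, and genes with several start sites have several windows. The 33 genes had 53 windows, and the 27028 genes of the table had 32851, so shares per gene favour the 33. Per window, with the bases just after the start included, the shares were closer for GCGTG (52.8% beside 32.4%) and TAATCC (11.3% beside 7.06%). For ACGTG they were 39.6% beside 19.6%, and for TGCTGA 17% beside 19.5%.

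Which of these genes the normal retina uses was read from counts per kilobase of transcript (RPK), the scale on which genes can be compared with each other. With the median transcript length, the highest WT levels were those of Pkm (228255 ± 20250 RPK, SD, n = 4) and Aldoa (200608 ± 19859 RPK), whose values overlapped. Eno1 (118952 ± 12393 RPK) and Ldha (111111 ± 13435 RPK) came next and also overlapped. With all exon bases of a gene as its length Aldoa came first, followed by Pkm and Bsg, so the order at the top depends on the length chosen. The length also sets the scale: the median WT level over the 36 genes was 12738 RPK with the median transcript and 3783 RPK with all exon bases. At the other end, Pdk4 was at 46.1 ± 6.50 RPK, Pfkfb1 at 146 ± 27.4 RPK and Slc16a8 at 200 ± 52.0 RPK.

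Within families the WT retina had a leading gene that did not depend on the length used for most of them. Hk1 (77349 ± 8931 RPK) was above Hk2 (13146 ± 1821 RPK), though with all exon bases they were closer, at 6024 ± 696 RPK and 3729 ± 516 RPK. Eno1 was above the neuronal enolase gene Eno2 (61031 ± 4979 RPK), and Ldha was above Ldhb (14718 ± 1889 RPK). Aldoa stood above Aldoc, Slc2a1 above Slc2a3, Nxnl1 above Nxnl2 and Mpc1 above Mpc2 under both lengths. Pfkfb2 (5623 ± 858 RPK) led the fructose 2,6-bisphosphate family, ahead of Pfkfb3 (802 ± 57.4 RPK), Pfkfb4 (616 ± 13.7 RPK) and Pfkfb1. Slc16a1 (5790 ± 257 RPK) led the monocarboxylate carriers, ahead of Slc16a3 (3429 ± 650 RPK). The family leaders Pfkfb2, Slc16a1 and Nxnl1 were among the downregulated genes, while the leaders Hk1, Aldoa, Eno1, Slc2a1 and Mpc1 did not pass the test. Ldha was lower inside the FC limits. Pfkl, whose mean was the highest of the phosphofructokinase genes under both lengths, was upregulated. Among the pyruvate dehydrogenase kinases, Pdk1 (4483 ± 337 RPK) and Pdk3 (4065 ± 140 RPK) changed places between the lengths.

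At glucose entry, none of the 4 genes passed the test. Slc2a1, which encodes GLUT1, the main glucose carrier of photoreceptors and their blood barrier, was at 188, 201, 192 and 203 CPM in WT and 215, 194 and 198 CPM in SCA7 (log2 FC 0.04, SE 0.06, adjusted p = 0.632 by edgeR). Slc2a3, which encodes the neuronal carrier GLUT3, had a log2 FC of 0.03 (SE 0.08). Hk1, the hexokinase of most neurons, was at 729, 787, 633 and 828 CPM in WT and 922, 864 and 821 CPM in SCA7, with a log2 FC of 0.22 and an interval of 2 SE from 0.04 to 0.41 that reached past the upper FC limit (adjusted p = 0.0889 by edgeR). Without WT mouse 4 the log2 FC of Hk1 was 0.28 and its adjusted p value 0.0361. Hk2, the hexokinase that photoreceptors are known for, was at 312, 298, 292 and 388 CPM in WT and 383, 239 and 308 CPM in SCA7. Its groups overlapped widely, with a log2 FC of -0.06, SE 0.16 and an interval from -0.37 to 0.26, in retinas whose rod marker sum was far lower.

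In upper glycolysis the 3 genes that passed the adjusted p value were all higher in SCA7. Pfkl (chr10:77986947-78010083, mm10), the liver-type subunit of phosphofructokinase, the enzyme of the committed step, was at 325, 364, 395 and 400 CPM in WT and 519, 468 and 476 CPM in SCA7. Every SCA7 mouse was above every WT mouse, and the log2 FC was 0.39 (SE 0.08, FC 1.31, adjusted p = 0.00345 by edgeR). That FC lies just above the limit of 1.3: without WT mouse 1 the log2 FC was 0.34 (adjusted p = 0.00934) and without SCA7 mouse 1 it was 0.35 (adjusted p = 0.0258), both inside the limits. Pfkm, the muscle-type subunit, was at 161, 183, 191 and 182 CPM in WT and 216, 204 and 226 CPM in SCA7 (log2 FC 0.26, SE 0.07, adjusted p = 0.0157). Tpi1, triose phosphate isomerase, was at 830, 923, 1097 and 848 CPM in WT and 1177, 1104 and 1191 CPM in SCA7 (log2 FC 0.32, SE 0.10, adjusted p = 0.0243). Both stayed inside the FC limits with all mice, and Tpi1 passed them without WT mouse 3, at a log2 FC of 0.42. The adjusted p value of Tpi1 rose to 0.0746 without WT mouse 1, 0.0604 without WT mouse 2, 0.0829 without SCA7 mouse 1 and 0.0875 without SCA7 mouse 3, and that of Pfkm to 0.0630 without SCA7 mouse 1 and 0.0820 without SCA7 mouse 3. In Pfkm and Tpi1 the groups did not overlap either, and 10.2% of the exon bases of Pfkm are shared with another gene model on the same strand.

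The other 4 upper genes did not pass the test. Pfkp, the platelet-type phosphofructokinase subunit, was at 394, 351, 326 and 439 CPM in WT and 403, 371 and 353 CPM in SCA7 (log2 FC -0.01, SE 0.10). The glucose phosphate isomerase gene Gpi1 had a log2 FC of 0.18 (SE 0.08, adjusted p = 0.117 by edgeR, and 0.0315 without WT mouse 4), and the aldolase genes Aldoa and Aldoc had -0.11 (SE 0.09) and 0.03 (SE 0.08). For all 4 the interval of 2 SE stayed inside the FC limits.

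The family that sets fructose 2,6-bisphosphate, the strong allosteric activator of phosphofructokinase, held 2 of the 5 downregulated genes. Pfkfb2 (chr1:130689182-130729253, mm10) was at 198, 177, 144 and 205 CPM in WT and 70.4, 75.0 and 69.4 CPM in SCA7. No SCA7 mouse reached the lowest WT mouse, with a log2 FC of -1.34 (SE 0.11, FC 0.40, adjusted p = 5.0e-06 by edgeR). Of its exon bases 17.4% are shared with Gm29427, a gene model on the same strand, and how reads there were assigned is not given in the sources used here. Pfkfb1, known as the liver and muscle form, was at 2.25, 1.43, 2.14 and 1.90 CPM in WT and 0.959, 0.949 and 1.35 CPM in SCA7 (log2 FC -0.81, SE 0.19, adjusted p = 0.00882 by edgeR), which rests on 59 to 139 reads per library. It fell without overlap, but from a level near the bottom of the 36 genes.

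Pfkfb3, the form best known for driving glycolysis in endothelium and dividing cells, was at 21.4, 24.8, 25.2 and 24.2 CPM in WT and 19.3, 16.4 and 25.8 CPM in SCA7 (log2 FC -0.22, SE 0.13, adjusted p = 0.254 by edgeR). Pfkfb4 was at 15.4, 15.7, 15.0 and 15.7 CPM in WT and 15.5, 15.9 and 16.1 CPM in SCA7 (log2 FC 0.03, SE 0.06). The family thus held 2 downregulated genes and 2 that did not pass the test, with intervals inside the FC limits for the latter. Without SCA7 mouse 3, Pfkfb3 was lower at a log2 FC of -0.42 (adjusted p = 0.0114 by edgeR), still inside the limits.

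**Figure D3:**
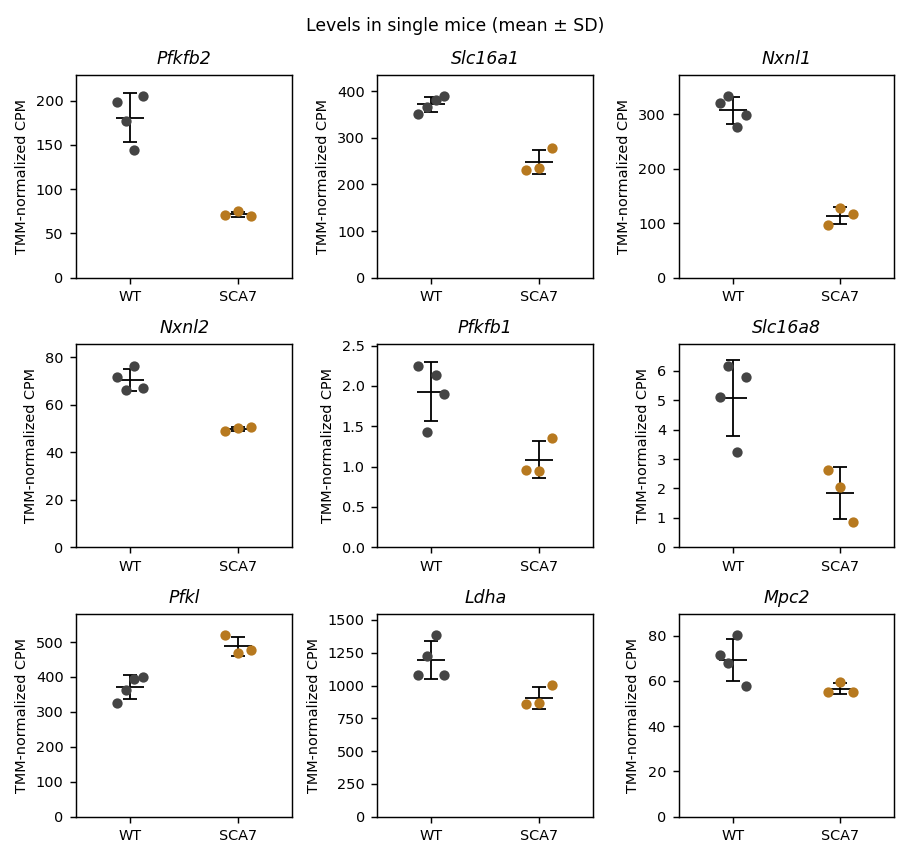
TMM-normalized CPM in each mouse (points) with the group mean and SD (bars) for 9 genes, each on its own axis from 0. SCA7 mice lie below WT mice without overlap for Pfkfb2, Slc16a1, Nxnl1, Nxnl2, Pfkfb1, Slc16a8 and Ldha and above them for Pfkl, while the Mpc2 ranges (57.7 to 80.1 CPM and 54.9 to 59.3 CPM) overlap.

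Lower glycolysis comprises the steps that repay ATP. Of its 6 genes none passed the test, and their log2 FC ran from -0.19 to -0.00 with intervals of 2 SE that stayed between -0.34 and 0.19. Gapdh, the dehydrogenase that makes the NADH later used to reduce pyruvate, was at 594, 645, 713 and 659 CPM in WT and 589, 583 and 621 CPM in SCA7. Pkm, pyruvate kinase, was at 2264, 2282, 2721 and 2561 CPM in WT and 2539, 2351 and 2476 CPM in SCA7 (log2 FC -0.00, SE 0.09, adjusted p = 0.994 by edgeR). The counts do not separate its M1 and M2 splice forms, and 15.3% of its exon bases are shared with another gene model on the same strand. Eno2 was at 608, 646, 729 and 622 CPM in WT and 566, 544 and 607 CPM in SCA7: the groups did not overlap, and the log2 FC of -0.19 (SE 0.08) did not pass the adjustment (adjusted p = 0.0973 by edgeR). Pgk1 (-0.01), Pgam1 (-0.05) and Eno1 (-0.12) overlapped between the groups. With 27970 reads or more per library their standard errors were at most 0.10.

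At the lactate step the A subunit and the main exporter were lower, and the B subunit and the chaperone did not pass the test. Ldha, whose subunit favours the reduction of pyruvate to lactate, was at 1080, 1225, 1382 and 1077 CPM in WT and 856, 864 and 1004 CPM in SCA7. No SCA7 mouse reached the lowest WT mouse, and the log2 FC was -0.39 (SE 0.10, adjusted p = 0.0121 by edgeR), inside the FC limits. The adjusted p value of Ldha was 0.0663 without SCA7 mouse 1 and 0.0631 without SCA7 mouse 2. Ldhb, whose subunit favours the reverse reaction, was at 161, 175, 209 and 159 CPM in WT and 164, 166 and 173 CPM in SCA7 (log2 FC -0.07, SE 0.09, adjusted p = 0.597).

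Slc16a1 (chr3:104638668-104658462, mm10) encodes MCT1, the lactate carrier of photoreceptors, Müller glia and the apical face of the RPE. It was at 351, 365, 381 and 389 CPM in WT and 232, 236 and 278 CPM in SCA7, with every SCA7 mouse below every WT mouse (log2 FC -0.58, SE 0.08, FC 0.67, adjusted p = 1.8e-04 by edgeR). Bsg, basigin, the chaperone that brings MCT1 to the membrane, was at 716, 748, 827 and 700 CPM in WT and 769, 768 and 771 CPM in SCA7. Its log2 FC was 0.04 (SE 0.07) with an interval of 2 SE from -0.10 to 0.19, beside an interval from -0.73 to -0.42 for the carrier. The counts do not tell the photoreceptor form of basigin from the common form.

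Slc16a8 (chr15:79251014-79254761, mm10) encodes MCT3, the lactate carrier of the basal face of the RPE, a layer that is left behind to a varying degree when a retina is dissected. It was at 5.11, 6.17, 3.23 and 5.80 CPM in WT and 2.63, 2.04 and 0.875 CPM in SCA7 (log2 FC -1.49, SE 0.39, FC 0.36, adjusted p = 0.0272 by edgeR). The summed level of 8 RPE markers in the same mice was 146, 159, 79.6 and 140 CPM in WT and 50.9, 45.1 and 21.0 CPM in SCA7, with none at 0. Of the 8, 4 were downregulated and 4 did not pass the test, of which Tyrp1, Mlana and Best1 had log2 FC above 0 (0.51, 0.56 and 0.08), and the largest part of the sum was Ttr, at a mean of 69.0 CPM in WT and 15.4 CPM in SCA7. Slc16a8 and the marker sum were both lowest in WT mouse 3 within WT and in SCA7 mouse 3 within SCA7, and the part of RPE content in the Slc16a8 result was not tested. The call was lost without WT mouse 4 (adjusted p = 0.0748) and without SCA7 mouse 2 (adjusted p = 0.0787), with log2 FC of -1.42 and -1.58.

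Slc16a7, which encodes the high-affinity neuronal carrier MCT2, was at 9.29, 10.0, 10.0 and 11.8 CPM in WT and 11.9, 11.4 and 12.2 CPM in SCA7 (log2 FC 0.21, interval of 2 SE from 0.03 to 0.38, adjusted p = 0.101 by edgeR, and 0.0172 without WT mouse 4). Slc16a3, which encodes the low-affinity exporter MCT4 of highly glycolytic cells, was at 42.0, 48.8, 61.3 and 41.5 CPM in WT and 51.1, 37.6 and 56.9 CPM in SCA7 (log2 FC 0.00, SE 0.18). Of the 4 lactate carriers, then, Slc16a1 and Slc16a8 were downregulated and the others did not pass the test.

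At the pyruvate switch, none of the 6 genes passed the FC limits. The 4 pyruvate dehydrogenase kinase genes, whose products shut the pyruvate dehydrogenase complex, had log2 FC of 0.12 (Pdk1, SE 0.07), 0.18 (Pdk2, SE 0.09), -0.05 (Pdk3, SE 0.06) and 0.12 (Pdk4, SE 0.26), with adjusted p values of 0.145 and above by edgeR. Pdk4, the form induced by fasting in other tissues, was at 0.292 to 0.492 CPM, on 19 to 42 reads per library, and its interval from -0.39 to 0.64 spans the upper FC limit but not the lower.

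Mpc1 and Mpc2 encode the partners of the mitochondrial pyruvate carrier, which works as a heterodimer. Mpc1 was at 77.0, 74.3, 90.4 and 64.2 CPM in WT and 71.8, 77.6 and 77.0 CPM in SCA7 (log2 FC -0.02, SE 0.09), and 23.1% of its exon bases are shared with a transcript on the other strand. Mpc2 was at 71.6, 68.0, 80.1 and 57.7 CPM in WT and 54.9, 59.3 and 55.3 CPM in SCA7 (log2 FC -0.30, SE 0.09, adjusted p = 0.0335 by edgeR), inside the FC limits. WT mouse 4 lay within the SCA7 range of Mpc2, and the adjusted p value was 0.0614 to 0.123 without WT mouse 1, without WT mouse 2 or without any 1 of the 3 SCA7 mice.

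The cone viability factor genes were both lower in every SCA7 mouse than in any WT mouse. Nxnl1 (chr8:71560555-71566601, mm10), which encodes rod-derived cone viability factor, was at 321, 333, 277 and 298 CPM in WT and 96.4, 128 and 117 CPM in SCA7. The log2 FC was -1.43 (SE 0.10, FC 0.37, adjusted p = 1.3e-06 by edgeR). Nxnl2 (chr13:51171022-51175188, mm10), its paralog, was at 71.8, 66.4, 76.4 and 67.1 CPM in WT and 48.8, 50.2 and 50.6 CPM in SCA7, again without overlap. Its log2 FC was -0.50 (SE 0.06, FC 0.71, adjusted p = 1.1e-04 by edgeR), just inside the limit of 0.7, and it passed that limit without WT mouse 2 (-0.53) or WT mouse 4 (-0.52). Each gene is known to give a short secreted factor and a longer thioredoxin-like enzyme by splicing, and the counts do not separate them. The part of the lower rod marker sum in the results of Nxnl1, Nxnl2, Pfkfb2, Slc16a1 and Ldha was not tested, nor was that of the lower RPE marker sum in the result of Slc16a1, and over the 10 rod markers the median log2 FC was -1.14.

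Ratios of sister genes within a library do not depend on library scaling. The log2 ratio was computed for 13 pairs and compared by an exact two-sided permutation test of the 4 WT against the 3 SCA7 libraries, whose smallest possible p is 0.0286. None of the 13 passed 0.05 after Benjamini-Hochberg adjustment. A pair at that smallest p can pass only if most of the 13 reach it too, so this outcome does not decide about any single pair. For 7 pairs the groups did not overlap, and 5 of these were at that smallest p (adjusted p = 0.0743, exact permutation test).

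Ldhb/Ldha was 1 of these: its log2 ratio of counts was -2.74, -2.81, -2.73 and -2.76 in WT and -2.38, -2.38 and -2.54 in SCA7, a difference of 0.33. Per length of the median transcript, Ldhb made up 11.7% ± 0.252 (SD, n = 4) of both in WT and 14.2% ± 0.749 (SD, n = 3) in SCA7. With all exon bases the WT levels were 7734 ± 992 RPK for Ldhb and 24840 ± 3004 RPK for Ldha, a larger share for Ldhb. The A subunit stayed the major transcript in every mouse. Nxnl2/Nxnl1 had the widest shift of the 13, from -2.12 ± 0.19 in WT to -1.18 ± 0.19 in SCA7 (difference 0.94). Slc16a7/Slc16a1 went from -5.18 ± 0.09 to -4.39 ± 0.11 (difference 0.79), Aldoc/Aldoa from -2.01 ± 0.03 to -1.87 ± 0.06 (difference 0.14) and Mpc2/Mpc1 from -0.14 ± 0.03 to -0.42 ± 0.05 (difference -0.28). In each of these 5 the SCA7 mice lay on 1 side of all WT mice.

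The other 8 pairs were above the smallest p. Pfkp/Pfkl was 0.28, -0.06, -0.27 and 0.13 in WT and -0.36, -0.33 and -0.43 in SCA7 (difference -0.40), and Pdk3/Pdk2 was 0.64, 0.53, 0.88 and 0.47 in WT and 0.45, 0.28 and 0.44 in SCA7 (difference -0.24). Neither overlapped between the groups (adjusted p = 0.124 for both, exact permutation test). Hk2/Hk1 differed by -0.30 with overlap (adjusted p = 0.149, exact permutation test), and Slc16a3/Slc16a1 by 0.58 (adjusted p = 0.124, exact permutation test). Slc2a3/Slc2a1, Pdk1/Pdk2 and Eno2/Eno1 differed by -0.01, -0.06 and -0.07.

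**Figure D4:**
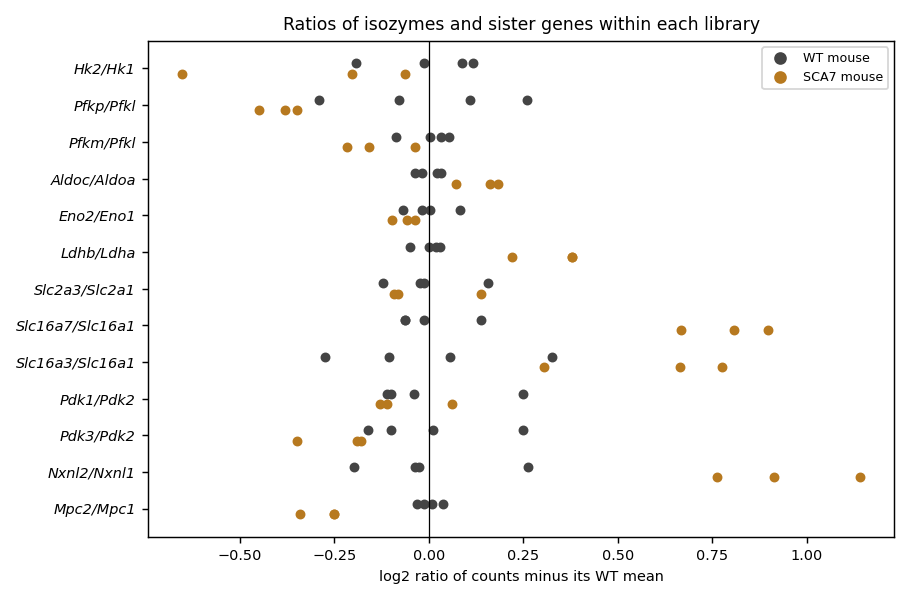
Log2 ratio of counts of 13 pairs of sister genes in each mouse, with the WT mean of the pair subtracted (horizontal axis), WT in grey and SCA7 in ochre. SCA7 mice stand to the right of WT mice for Aldoc/Aldoa, Ldhb/Ldha, Slc16a7/Slc16a1 and Nxnl2/Nxnl1 and to the left for Mpc2/Mpc1, Pfkp/Pfkl and Pdk3/Pdk2.

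Neighbouring pathways were read from 9 lists of 102 genes, of which 92 were tested. Of these, 5 (5.43%) were downregulated and 6 (6.52%) upregulated, beside 7.91% and 7.47% of all genes tested, and their median log2 FC was 0.09, beside -0.02. Oxidation of pyruvate showed no called gene: of 8 genes of the pyruvate dehydrogenase complex and its phosphatases and of 16 genes of the tricarboxylic acid cycle none passed the FC limits, though some passed the adjusted p value inside them. In the pyruvate dehydrogenase list these were Dlat (log2 FC 0.33), Pdha1 (0.16) and Pdpr (-0.33), and in the tricarboxylic acid cycle Idh3a (0.25), Idh3g (0.25) and Ogdh (0.35). Of the 16 cycle genes, 14 (87.5%) had a log2 FC above 0, beside 47.5% of all genes tested. None of 8 pentose phosphate genes and none of the 3 tested gluconeogenesis genes was called. The shuttles that pass the reducing equivalents of cytosolic NADH to mitochondria, and so regenerate NAD+ for glycolysis, had 3 of 10 genes upregulated (30.0%, beside 7.47% of all genes tested) and none downregulated: Gpd1 (log2 FC 0.67, SE 0.15), Gpd2 (0.51, SE 0.07) and Slc25a13 (0.93, SE 0.13), the last an aspartate and glutamate carrier. Gpd1 and Slc25a13 were low, at means of 2.03 and 1.53 CPM in WT and 3.24 and 2.91 CPM in SCA7. At the adjusted p value but inside the FC limits, Got1 (0.25), Gpd1l (0.29) and Slc25a12 (0.30) were higher and Slc25a10 (-0.27) was lower. The reactive glia and microglia marker sums were higher in the same mice, and their part in these results was not tested.

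Single genes of the remaining lists moved in both directions. Among 16 other glycolytic isozymes and glucose carriers, the hexokinase-like gene Hkdc1 was upregulated, from 7.22 to 9.57 CPM in WT to 14.4 to 18.1 CPM in SCA7 (log2 FC 1.02, SE 0.11, adjusted p = 2.6e-05 by edgeR), and the muscle phosphoglycerate mutase Pgam2 was downregulated at 0.234 to 1.01 CPM over all mice (-1.06, SE 0.26). Among 11 glycogen genes, the muscle-type glycogen phosphorylase Pygm was upregulated, from 73.6 to 93.0 CPM to 156 to 168 CPM (0.98, SE 0.08), and the phosphorylase kinase subunit Phkb was downregulated (-0.70, SE 0.14). Of 6 phosphagen kinase genes, which buffer ATP, the mitochondrial creatine kinase Ckmt1 was downregulated, from 132 to 150 CPM to 73.1 to 82.0 CPM (-0.86, SE 0.07), as was Ckm at 0.224 to 0.704 CPM over all mice (-1.14, SE 0.29). Without SCA7 mouse 3, only 1 of these 2 was downregulated. The most abundant gene of that list, the creatine kinase gene Ckb, was higher inside the FC limits. Its means were 1228 CPM in WT and 1542 CPM in SCA7 (log2 FC 0.33, SE 0.10, adjusted p = 0.0237 by edgeR). Among 14 genes of hypoxia signalling, Epas1, which encodes the hypoxia factor HIF-2 alpha and is known from endothelium, was upregulated (0.40, SE 0.10) and the stress gene Ddit4 downregulated (-0.70, SE 0.06). Without WT mouse 3, and without SCA7 mouse 3, no gene of that list was upregulated. Beside Epas1, the summed level of 10 endothelium and pericyte markers was 304 to 351 CPM in WT and 402 to 450 CPM in SCA7, with none at 0. Of the 10, 3 were upregulated and none was downregulated, Kdr made up 106 CPM of the mean sum in WT and 171 CPM in SCA7, and Cldn5 was lower inside the FC limits (log2 FC -0.48, adjusted p = 0.0109 by edgeR). The part of these cells in the Epas1 result was not tested.

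**Figure D5:**
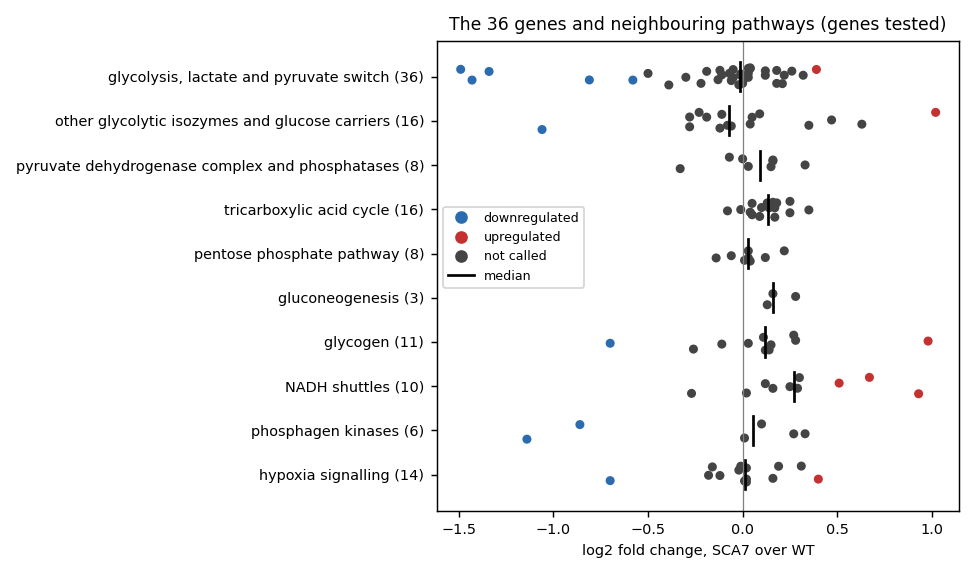
Log2 FC (SCA7/WT, horizontal axis) of each tested gene, 1 point per gene, for the 36 genes (top row) and 9 lists of neighbouring pathways, with the number tested in brackets and the median as a black bar. Called genes are coloured: 5 blue and 1 red among the 36, and 5 blue and 6 red over the lists, 3 of the red in the NADH shuttles.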

How the data were processed

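Total RNA was sequenced as single reads from rRNA-depleted, stranded libraries of 4 WT and 3 SCA7 mice. The authors mapped reads to mm10 with TopHat2 2.0.14 and Bowtie2 2.1.0 and deposited raw counts per Ensembl gene from HTSeq 0.6.1. The HTSeq mode and strand option are not given in the sources used here. Names, positions and lengths came from GENCODE annotation of GRCm38, the same assembly, which covered 52403 genes.

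Counts were filtered by filterByExpr (20128 genes), scaled by TMM and tested with edgeR 4.0.16 in R 4.3.3 by the robust quasi-likelihood test over all genes with Benjamini-Hochberg adjustment. Standard errors are the log2 FC over the square root of F, and intervals are 2 SE. A gene was called at adjusted p under 0.05 with FC under 0.7 or above 1.3. RPK is the count over the DESeq2 size factor and length in kb, and ratios used counts plus 0.5. Alternatives were DESeq2 1.42.0, limma-voom (limma 3.58.1), DESeq2 size factors, a weaker filter, a replicate block, an Xist covariate, no FC limit, all exon bases as length, and each library left out. The scripts were tested on simulated data. No pair of libraries agreed within sampling noise. Mice differ by more than counting error, so SDs and SEs over mice are given.

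The genes, the pathway lists, the marker lists and the motifs were chosen with earlier results of these data known. All 36 genes are named. Of each pathway list the called genes are named, up to the 3 largest changes in each direction, and in some lists genes inside the FC limits. Marker lists appear where a result is set beside them or where cell content is described. ChIP-seq data were not analysed here.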

Additional observations from a re-analysis of the deposited data

How the results depend on the processing

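The counts of called genes among the 36 ranged little: 4 to 6 were downregulated under the alternatives that kept the FC limits, and 0 to 2 were upregulated when each library was left out. Without an FC limit, 8 of the 36 genes were lower and 3 higher, over all genes 2852 were lower and 2853 higher, and over the pathway lists 10 were lower and 19 higher. The median log2 FC of the 36 genes was 0.01 with no filter beyond 1 count, -0.05 with the replicate block, and -0.06 to 0.02 when each library was left out. Deviations from the group means of same-numbered mice correlated at 0.01, 0.20 and 0.09, and those of other WT and SCA7 pairs at -0.21 to 0.14. These correlations do not settle whether replicate numbers pair the mice. The block gave 1706 downregulated and 1629 upregulated genes, beside 1592 and 1504 without it, and 6 of the 36 genes were then downregulated, Nxnl2 being added at -0.52; it changed no other call among them. Inside the FC limits, genes with an adjusted p of 0.05 or more without it passed 0.05 with the block (Hk1 at 0.00710, Pdk2 at 0.0112, Slc16a7 at 0.0129, Gpi1 at 0.0232 and Eno2 at 0.0476), with the Xist covariate (Hk1 at 0.00614, Pdk2 at 0.0159 and Eno2 at 0.0173) or with no filter beyond 1 count (Hk1 at 0.0253). Xist was at 0.0612 to 0.300 CPM in all libraries, so that covariate does not separate sexes. Slc16a8 lost its call with no filter beyond 1 count (adjusted p = 0.0987 by edgeR). With all exon bases as length, the median WT level over the 36 genes was 3783 RPK.

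Values near 0 changed sign. The log2 FC of Pfkp was 0.01 with no filter beyond 1 count, 0.08 with the block and 0.01 with the Xist covariate, that of Pgk1 was 0.01 with no filter beyond 1 count, and that of Hk2 was 0.02 with the block. When each library was left out, log2 FC ran from -0.03 to 0.10 for Slc2a3, from -0.07 to 0.07 for Pfkp, from -0.01 to 0.09 for Aldoc, from -0.06 to 0.09 for Pgk1, from -0.10 to 0.02 for Pgam1, from -0.11 to 0.02 for Ldhb, from -0.09 to 0.07 for Mpc1, from -0.24 to 0.10 for Hk2 and from -0.02 to 0.36 for Pdk4. The log2 ratio differences ran from -0.09 to 0.04 for Slc2a3/Slc2a1 and from -0.13 to 0.02 for Pdk1/Pdk2. None of these genes passed the test in any of those fits. The cause of these shifts was not tested.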
